A study of Caenorhabditis elegans with 4 samples.

Results

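The piRNA clusters of chromosome IV are a pair of long stretches that hold most piRNA genes of *Caenorhabditis elegans*. The regions described here are those of a pooled ChIP-seq list of the factor CES-1 whose summit, the position of highest signal, lies on chromosome IV from 4500000 to 7000000 (cluster 1) or from 13500000 to 17200000 (cluster 2) of the ce11 build. They number 1593 of the 25493 regions of the pooled list, with 714 in cluster 1, 879 in cluster 2, and 2889 on the rest of the chromosome. The choice used position only and no signal value. By its label the pooled list holds peaks and background, the input to the authors' step of irreproducible discovery rate (IDR). Of all its regions, 4.55% overlap a peak that passed this step, so a region of the list need not be a bound site. The libraries were made from whole L4 larvae of strain OP174, pooled male and female, which carries unc-119(ed3) and the integrated transgene wgIs174, with ces-1 fused to the TY1, EGFP and FLAG tags and unc-119 beside it. There is 1 group of 4 biological replicates and no second genotype, stage or treatment, so the comparisons are between stretches of the genome within each library. Replicates 1 and 2 have a stated fragment range of 150 to 350 bp and worms from the CGC stock centre. Replicates 3 and 4 were sonicated with a microtip and have the producing laboratory as source. Whole larvae mix all tissues, so a region's signal is an average over cells with and without the factor.

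CES-1 is a zinc finger protein of the Snail family, best known as a repressor that acts in the control of programmed death of particular cells of the pharynx. piRNAs of the worm, the 21U-RNAs, are short RNAs that start with U and bind the Piwi protein PRG-1 in the germ line, where they guide the silencing of foreign and repeated sequences. Most worm piRNAs are transcribed one by one by RNA polymerase II from tiny genes, each with its own promoter element upstream, and the complex that binds these loci contains SNPC-4, PRDE-1, TOFU-4 and TOFU-5. The clusters also contain ordinary genes, lying between the piRNA genes or around them.

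The cluster limits took in most piRNA genes but did not follow their density closely. Of 14714 piRNA genes annotated on chromosome IV, 14204 (96.5%) lay inside the limits. The first 3 bins of 100 kb of cluster 1 held 9 piRNA genes, while the bin just past the upper limit of cluster 2 held 146. That bin, counted to the rest, also held 6 regions that overlap an IDR peak. Cluster 1 held 2816 piRNA genes (1126 per Mb), cluster 2 held 11388 (3078 per Mb), and the rest of the chromosome held 510 (45.2 per Mb). Cluster 2 had 124 protein-coding genes per Mb, against 192 in cluster 1 and 207 on the rest of the chromosome. Its sequence was the poorest in G and C, at 32.3%, against 34.0% in cluster 1 and 35.5% on the rest.

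The sequences below show what a piRNA gene with a region over it looks like. They are the genes under the 3 strongest members at piRNA genes in each cluster, read from the WBcel235 genome on the strand of the gene, from 60 bases upstream to the end of the gene. Capitals mark the 21 bases of the piRNA and, before them, the best match to CTGTTTCA, the core of the upstream promoter element of these genes.
21ur-7375: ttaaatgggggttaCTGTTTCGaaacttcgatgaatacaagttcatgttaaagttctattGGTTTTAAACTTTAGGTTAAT
21ur-11130: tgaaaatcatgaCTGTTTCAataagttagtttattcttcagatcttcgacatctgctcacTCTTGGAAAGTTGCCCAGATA
21ur-14924: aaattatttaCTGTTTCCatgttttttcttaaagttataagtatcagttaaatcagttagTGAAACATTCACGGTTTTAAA
21ur-11368: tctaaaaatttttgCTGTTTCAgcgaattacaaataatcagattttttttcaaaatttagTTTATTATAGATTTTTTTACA
21ur-15210: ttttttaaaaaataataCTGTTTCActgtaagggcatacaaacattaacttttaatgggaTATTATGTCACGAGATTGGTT
21ur-2803: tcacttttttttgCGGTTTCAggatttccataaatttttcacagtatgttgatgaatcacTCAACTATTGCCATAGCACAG

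The first 3 lie in cluster 1, at chrIV:5609374-5609454, chrIV:6342778-6342858 and chrIV:6837918-6837998, all on the reverse strand. The others lie in cluster 2, at chrIV:15792140-15792220 and chrIV:15571427-15571507 on the forward strand and chrIV:15575355-15575435 on the reverse strand. The match has all 8 letters in 21ur-11130, 21ur-11368 and 21ur-15210, and 7 of them in the other three. Over all annotated piRNA genes, the full 8 letters stood within 60 bp upstream, on the strand of the gene, of 39.7% in cluster 1, 33.6% in cluster 2 and 31.6% on the rest of the chromosome. The commonest distance from the first letter to the 5′ end of the gene was 46 bp in each. The first base was T, the U of the RNA, in 95.6%, 96.4% and 96.9% of piRNA genes of cluster 1, cluster 2 and the rest.

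The regions were about as dense in the clusters as outside them. The pooled list had 285.6 regions per Mb in cluster 1, 237.6 in cluster 2, and 255.8 on the rest of the chromosome. In replicates 1 to 4, cluster 1 had 299.6, 340.8, 308.0 and 317.2 regions per Mb, cluster 2 had 248.9, 267.3, 272.4 and 291.6, and the rest of the chromosome had 296.6, 294.1, 303.3 and 297.3. Cluster 1 was above the rest in all 4 libraries and cluster 2 below it in all 4, by little.

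The mean log2 ratio of density to the rest was 0.09 ± 0.09 in cluster 1 and -0.14 ± 0.09 in cluster 2 (SD, n = 4). An exact sign-flip permutation test over the 4 libraries, two-sided, gave p = 0.13 for each, the smallest that 4 libraries allow, so none of the tests here can pass 0.05. Without replicate 2 the mean of cluster 1 was 0.04. Both directions depended on what the clusters were set against. Cluster 1 lies in the gene-rich centre of the chromosome and cluster 2 in its right arm. Against the rest of the centre the log2 ratio of cluster 1 was -0.01, and against the rest of the arms that of cluster 2 was 0.01.

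**Figure D1:**
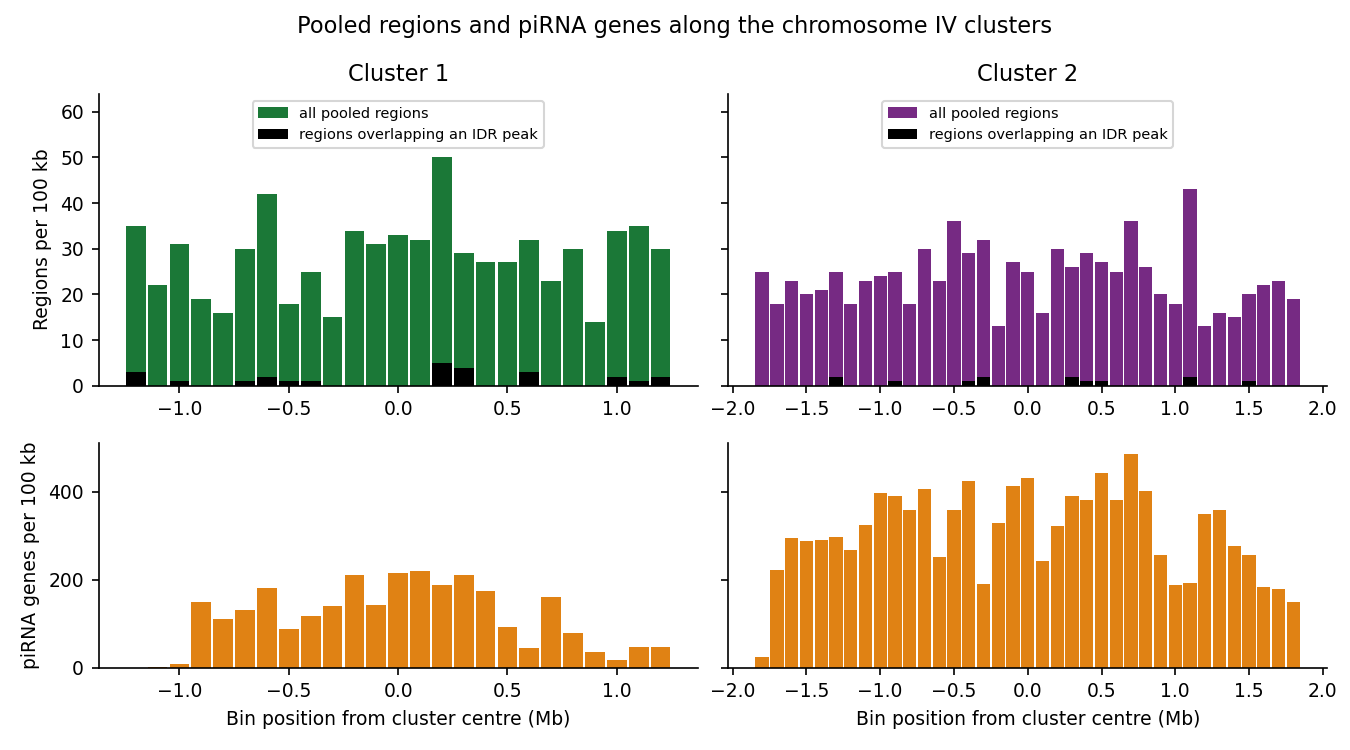
Regions of the pooled list (upper panels) and annotated piRNA genes (lower panels) in bins of 100 kb along cluster 1 (left) and cluster 2 (right), by position from the cluster's centre in Mb. Black bars are regions that overlap a reproducible (IDR) peak. They are missing from 13 of 25 bins of cluster 1 and from 28 of 37 bins of cluster 2.

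Within the clusters, regions spread evenly compared with piRNA genes, as the plot of bins shows. A bin of 100 kb held from 14 to 50 regions in cluster 1 (median 30), from 13 to 43 in cluster 2 (median 23), and from 3 to 47 on the rest (median 25). piRNA genes numbered 0 to 220 per bin in cluster 1 and 24 to 486 in cluster 2. Across bins, Spearman's rho between regions and piRNA genes was 0.14 over 25 bins of cluster 1, 0.41 over 37 bins of cluster 2, and 0.21 over 112 bins of the rest. Between regions and protein-coding genes it was -0.47 in cluster 1, -0.34 in cluster 2 and 0.05 on the rest. Neighbouring bins share base composition and gene content, so these are descriptions.

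Cluster 2 differed in how strong and how reproducible its regions were. Of the pooled list, 39 of 1593 cluster regions (2.45%, 95% Wilson interval 1.80 to 3.33) overlapped a peak of the authors' IDR list, the set that passed their step of irreproducible discovery rate. This was 26 of 714 (3.64%, 2.50 to 5.28) in cluster 1 and 13 of 879 (1.48%, 0.866 to 2.51) in cluster 2, against 119 of 2889 (4.12%, 3.45 to 4.91) on the rest of the chromosome and 4.55% of the whole pooled list. The intervals cover counting error only, and the IDR list is a single list, with no replicate to test. Per Mb there were 10.4 such regions in cluster 1, 3.51 in cluster 2 and 10.5 on the rest. By their own summits, 22 IDR peaks lay in cluster 1, 13 in cluster 2 and 108 on the rest, and 4 of the 26 members of cluster 1 were weaker regions that touch a neighbour's peak.

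Cluster 2 was also lowest in each of the single libraries, ranked separately. Each library is given as 30000 regions, and a strong region is here one of its 2000 of highest signal, which are 6.67% of the list. In replicates 1 to 4, strong regions were 6.54%, 5.52%, 6.62% and 5.80% of those in cluster 1. In cluster 2 they were 3.04%, 2.83%, 4.07% and 3.71%, and on the rest of the chromosome 6.03%, 6.26%, 6.60% and 6.34%. Cluster 2 did not overlap with either of the others, while cluster 1 overlapped with the rest.

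The mean share of strong regions was 6.12% ± 0.547 in cluster 1, 3.41% ± 0.575 in cluster 2 and 6.31% ± 0.235 on the rest (SD, n = 4 each). The log2 ratio of cluster 2 to the rest was -0.90 ± 0.20, lower in 4 of 4 libraries, with p = 0.13 by the exact sign-flip permutation test and 0.188 after Benjamini-Hochberg adjustment over 12 ratios. Its mean was -1.07 in replicates 1 and 2 and -0.74 in replicates 3 and 4, the pairs with different fragmentation labels. Set against the rest of the chromosome arms only, which had 5.69% ± 0.555, it was -0.75. The ratio of cluster 1 to cluster 2 was 0.85 ± 0.22, higher in 4 of 4 libraries (exact p = 0.13). That of cluster 1 to the rest was -0.05 ± 0.14, 2 libraries lower and 2 higher (exact p = 0.5), and the 4 libraries do not show whether they differ. With 1 library left out it lay between -0.10 without replicate 1 and -0.0020 without replicate 2.

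**Figure D2:**
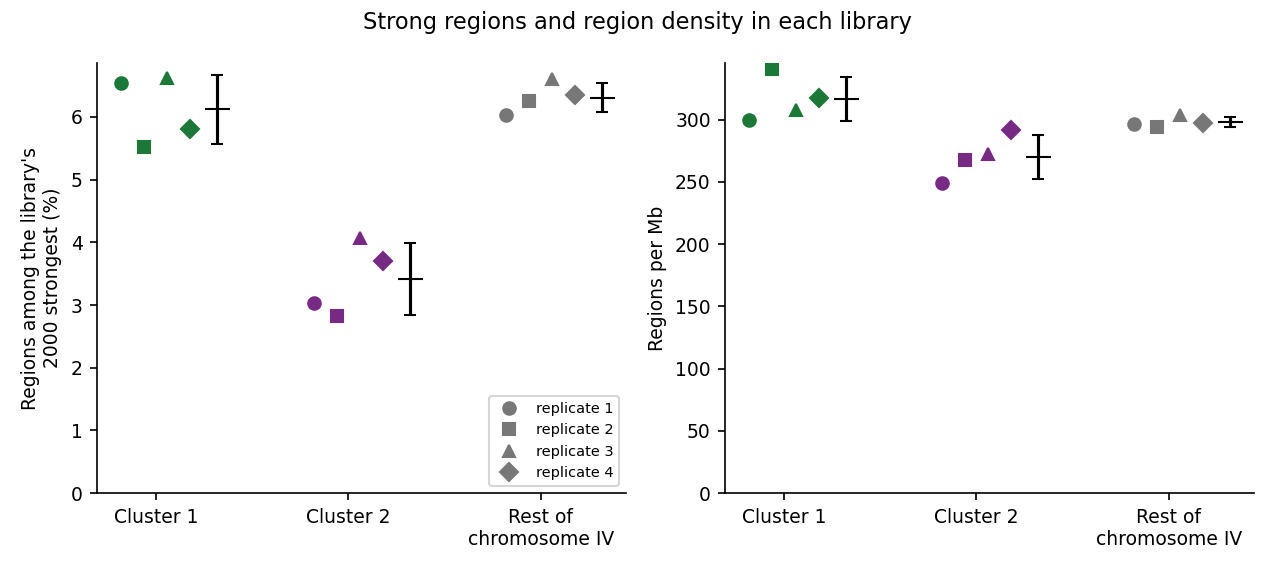
Share of regions among the 2000 strongest of each library (left, %) and regions per Mb (right) in cluster 1, cluster 2 and the rest of chromosome IV. Each symbol is 1 of 4 libraries and the bar is the mean with its SD. Cluster 2 lies between 2.83% and 4.07% on the left, below every value of the other stretches.

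The typical region differed little, and the gap lay among the strong ones. The signal, a value per region in the authors' lists whose scale is not stated, had a median of 14.1 in cluster 1, 13.2 in cluster 2 and 14.0 on the rest in the pooled list. The highest 10% of regions began at 25.8 in cluster 1, 21.5 in cluster 2 and 27.4 on the rest. The log2 ratio of median signals in the single libraries was -0.01 ± 0.04 for cluster 1 to the rest and -0.08 ± 0.05 for cluster 2 to the rest (SD, n = 4, exact p = 0.625 and 0.13). A region was matched by an overlapping region in all 4 libraries for 10.2% of members in cluster 1, 5.46% in cluster 2 and 11.4% of the rest. The regions nearest the limits, 1 on each side, are given as a description. At the lower limit of cluster 1 the nearest member had 15.97 and the nearest region outside 15.4, and at its upper limit the values were 12.2 and 12.4. At cluster 2 they were 10.5 and 11.3 at the lower limit, and 13.1 and 17.4 at the upper one.

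Most regions in the clusters, as elsewhere, were not at piRNA genes. A summit was counted to a piRNA gene if it lay in the gene or within 100 bp upstream of it. In cluster 1, 87 members (12.2%) were there, and these windows cover 10.8% of its bases. In cluster 2, 250 members (28.4%) were there, on 25.7% of the bases. They touched 110 of 2816 piRNA genes (3.91%) in cluster 1 and 378 of 11388 (3.32%) in cluster 2.

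In the single libraries, the density of regions inside these windows was above that of the other sequence of the same cluster in replicates 2, 3 and 4 and below it in replicate 1, in both clusters. The log2 ratio was -0.09, 0.42, 0.15 and 0.52 in cluster 1, a mean of 0.25 ± 0.28 (SD, n = 4, exact p = 0.25). It was -0.03, 0.44, 0.16 and 0.35 in cluster 2, a mean of 0.23 ± 0.21 (SD, n = 4, exact p = 0.25). The spread between libraries was about as large as the mean.

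Regions at piRNA genes were seldom strong. In replicates 1 to 4, strong regions were 2.63%, 0.847%, 4.40% and 0.855% of those in piRNA windows of cluster 1, against 6.98%, 6.27%, 6.92% and 6.66% of its other regions. In cluster 2 they were 0.855%, 1.26%, 2.85% and 2.12% in piRNA windows, against 3.78%, 3.57%, 4.54% and 4.41% elsewhere. The groups did not overlap in either cluster. The piRNA windows of cluster 1 held 76, 118, 91 and 117 regions in replicates 1 to 4, so each share there rests on very few strong regions. The mean difference was -4.53 ± 1.47 percentage points in cluster 1 and -2.30 ± 0.505 in cluster 2 (SD, n = 4), lower in 4 of 4 libraries in each (exact sign-flip permutation p = 0.13).

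The pooled list showed the same at its upper end. No member at a piRNA gene of cluster 1 overlapped an IDR peak (0 of 87, where 3 counts, the limit taken for every count of 0 here, would be 3.45% and the Wilson upper bound is 4.23%), against 26 of 627 elsewhere in that cluster (4.15%, 2.85 to 6.01). In cluster 2 this was 1 of 250 (0.400%, 0.0706 to 2.23), against 12 of 629 elsewhere (1.91%, 1.09 to 3.30). The highest signal at a piRNA gene of cluster 1 was 24.0, at 21ur-7375, and the lowest of any IDR peak is 44.2. The median GC content within 50 bp of the summit was 26.7% in the piRNA windows of either cluster, against 33.7% elsewhere in cluster 1 and 30.7% elsewhere in cluster 2, and the part of base composition in the difference was not tested across libraries. Split into 3 classes of GC content, members of both clusters in piRNA windows overlapped an IDR peak in 1 of 254 (0.394%) of the lowest class, against 0 of 511 elsewhere (which allows up to 0.587%). In the middle class this was 0 of 73 (which allows up to 4.11%), against 8 of 384 elsewhere (2.08%, 1.06 to 4.06). In the highest it was 0 of 10, too few to compare, against 30 of 361 elsewhere (8.31%, 5.88 to 11.6). Within no class was a difference in IDR overlap detectable at these numbers.

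**Figure D3:**
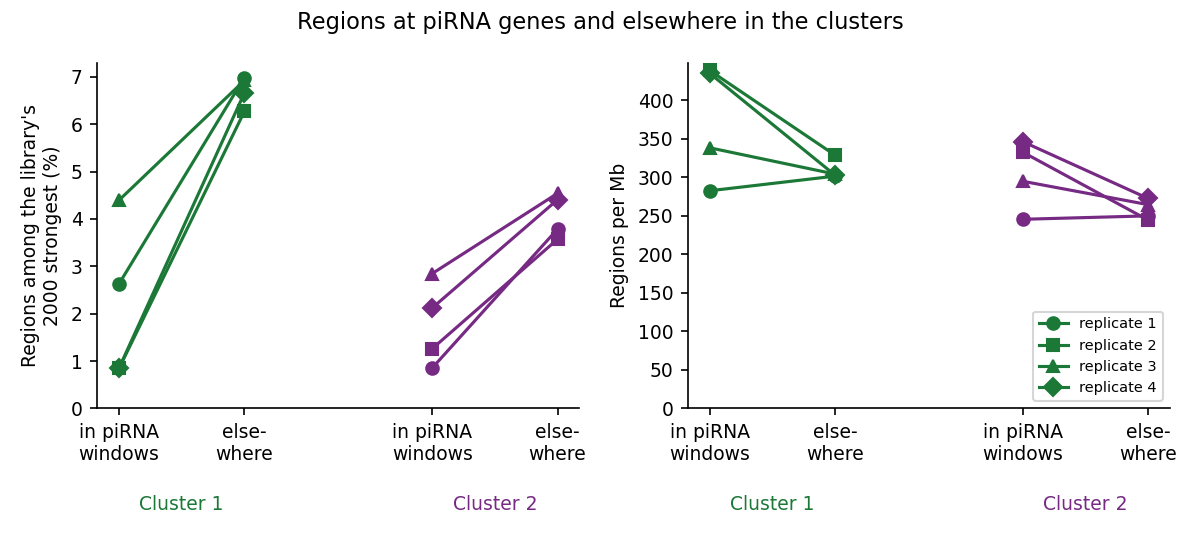
Share of regions among the 2000 strongest of a library (left, %) and regions per Mb (right) in piRNA windows and elsewhere in cluster 1 and in cluster 2. Lines join the values of 1 library. On the left every line goes up from the piRNA windows, while on the right replicate 1 goes the other way from the other libraries.

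The exception was a single region of cluster 2. It lay at chrIV:15791968-15792311, in intergenic sequence, and its summit was 60 bp upstream of 21ur-11368, the only piRNA gene inside it. Its pooled signal was 72.4, rank 318 of the pooled list, and the strongest overlapping region ranked 487, 587, 117 and 672 in replicates 1 to 4, so it was strong in every library. The nearest 5′ end of a gene other than a piRNA gene was 994 bp away, that of a protein-coding gene known only by its sequence name. The sequence within 50 bp of the summit, at chrIV:15792090-15792190 on the forward strand, is shown with CTGTTTCA in capitals.
21ur-11368 summit: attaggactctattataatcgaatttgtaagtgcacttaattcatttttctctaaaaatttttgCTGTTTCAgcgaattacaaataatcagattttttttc

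With a GC content of 24.8% in this window, it was the only 1 to overlap an IDR peak among the 482 members of cluster 2 in the lowest of 3 GC classes. The other leading members at piRNA genes were weaker and less even over libraries. The member at 21ur-15210 had 31.8 in the pooled list and ranked 18688, 1222, 13521 and 2022. The one at 21ur-2803 had 24.7, ranked 3478 in replicate 1 and 29033 in replicate 4, and had no region in replicates 2 and 3. In cluster 1, 21ur-7375 lies in an intron of fkh-7, a forkhead gene, and its region ranked 19962, 9433 and 21742 in replicates 1, 2 and 4, with none in replicate 3. The regions at 21ur-11130 and 21ur-14924 had pooled signals of 21.7 and 20.1.

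CTGTTTCA, on either strand, stood within 50 bp of the summit in 39 of 714 members of cluster 1 (5.46%), 83 of 879 of cluster 2 (9.44%) and 16 of 2889 regions of the rest (0.554%), and in 0.992% of all pooled regions. The consecutive windows of the same length, 101 bp, that tile the chromosome held it in 5.0%, 8.92% and 0.762% of cases in cluster 1, cluster 2 and the rest. The members thus held the motif about as often as the sequence they lie in. The motif was present in 31 of the 87 members at piRNA genes of cluster 1 (35.6%) and 69 of the 250 of cluster 2 (27.6%). Elsewhere it was in 8 of 627 (1.28%) and 14 of 629 (2.23%). The piRNA windows take in the sequence upstream of piRNA genes, where the motif lies. By a different measure, 39.7% and 33.6% of all annotated piRNA genes of the clusters have it upstream. CAGGTG, the E-box that Snail-family proteins are known to bind, stood in the same window of 24 members of cluster 1 (3.36%, 2.27 to 4.95), 10 of cluster 2 (1.14%, 0.619 to 2.08) and 63 regions of the rest (2.18%, 1.71 to 2.78). Among tiling windows the shares were 2.39%, 1.84% and 2.52%. Of the members that overlap an IDR peak, 0 of 26 in cluster 1 and 0 of 13 in cluster 2 held CAGGTG there, and 0 of 119 on the rest. Such counts allow shares of up to 11.5%, 23.1% and 2.52%. In no stretch taken alone can a shortfall against the tiling windows thus be shown, and the stretches were not tested together. A match is a run of letters and does not show binding.

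The strongest members were at ordinary genes and in intergenic sequence. The 2 highest of cluster 1 and the highest of cluster 2 are shown on the forward strand, with the 11 bases centred on the summit in capitals, because they are the regions that every library ranked near its top. All 3 are shorter than 344 bp, the median width of regions in each stretch.
Y17G9B.5: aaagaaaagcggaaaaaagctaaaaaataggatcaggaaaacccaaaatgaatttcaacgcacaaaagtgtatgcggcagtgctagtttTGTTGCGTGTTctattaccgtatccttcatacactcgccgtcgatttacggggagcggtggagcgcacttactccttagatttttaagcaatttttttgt
F28E10.1: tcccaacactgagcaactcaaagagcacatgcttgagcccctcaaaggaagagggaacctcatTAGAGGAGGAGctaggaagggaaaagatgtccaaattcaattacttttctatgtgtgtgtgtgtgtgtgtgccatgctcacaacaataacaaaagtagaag
Y41E3.7: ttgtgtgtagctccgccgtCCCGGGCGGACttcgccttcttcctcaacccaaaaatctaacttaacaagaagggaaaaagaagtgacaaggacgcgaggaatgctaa

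The region named for Y17G9B.5, at chrIV:4749971-4750159, had its summit 175 bp upstream of that gene, in a stretch that is also the promoter window of rpl-20, which encodes a protein of the large ribosomal subunit. Its pooled signal of 190.0 was the highest in the clusters, and it ranked 58, 49, 38 and 47 in replicates 1 to 4. The next lay in an intron of F28E10.1 at chrIV:4586097-4586260, had 162.5, and ranked 95, 40, 338 and 53. The region of cluster 2 lay in an intron of Y41E3.7 at chrIV:15017133-15017239, had 160.7, and ranked 63, 50, 119 and 57. These regions had GC contents of 40.2%, 43.9% and 49.5%, above the 34.0% and 32.3% of the clusters they lie in.

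Several other leading members of cluster 1 were in or near genes of known function, and their ranks varied more. The next, with a pooled signal of 125.3 at chrIV:4505242-4505346, lay in an intron of gbb-2, which encodes a subunit of the GABA-B receptor, with the non-coding gene ZK180.11 as its nearest 5′ end. It ranked 60, 83 and 115 in replicates 1, 2 and 4 but 7415 in replicate 3. The region at chrIV:6956633-6956976, 836 bp upstream of jnk-1, a JNK-type MAP kinase gene, had 83.5 and ranked 273, 142, 19820 and 541. At kcc-2, which encodes a potassium-chloride cotransporter, the region at chrIV:6060898-6061241 had 78.9 and ranked 190, 160 and 323 in replicates 1, 2 and 4, with none in replicate 3. In each of these replicate 3 stood apart from the others.

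The region in an intron of soc-2, a leucine-rich repeat scaffold of Ras signalling, had 67.2 and ranked 325, 495, 4214 and 242. Steadier ranks were seen in intergenic sequence whose nearest 5′ end, 4047 bp away, is that of the non-coding gene K02B2.35. The region there had 88.4 and ranked 151, 198, 462 and 820. Steadier ranks were also seen in an intron of H04M03.12 (78.2, ranks 675, 370, 536 and 365). C17H12.10 had 73.9 and the non-coding gene H32C10.95 had 67.9. Outside the 10 strongest and named after their values were seen, IDR-overlapping members lay in the promoter windows of nbet-1, a SNARE of vesicle transport (47.1), sqd-1, an RNA-binding protein gene (59.9), and vha-8, a subunit of the vacuolar proton pump (64.9).

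Cluster 2 offered fewer genes with a known role. Its second member, at chrIV:14464085-14464428, had its summit in an exon of the non-coding gene LLC1.120, in the promoter window of dld-1, the gene of dihydrolipoamide dehydrogenase. It had a pooled signal of 98.0 and ranked 176, 88, 7195 and 2832, so it was among the strong regions of replicates 1 and 2 only. The intergenic region near Y116A8A.2 had 89.9 and ranked 2268, 61, 5059 and 170. The region in an intron of egl-23, a gene of the TWK potassium channels, had 58.8 and ranked 1143, 225, 1991 and 4632. The one whose nearest gene is daf-38, which encodes a receptor for dauer pheromones, lay 7702 bp upstream of it and had 51.97. The others of the 10 strongest, at Y37A1B.335 and at genes known only by their sequence names, had signals from 56.2 to 70.6. Of the members overlapping an IDR peak, 22 of 26 in cluster 1 and 10 of 13 in cluster 2 had an overlapping region in all 4 libraries. On the rest of the chromosome this was 100 of 119 regions.

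The 3 strongest members of cluster 1 lay at its left edge, while others of its 10 strongest lay near its middle. The first 3 of its bins of 100 kb, from 4500000 to 4799999, hold 9 piRNA genes and 88 members, of which these 3 and 1 more overlap an IDR peak. In the 8 bins of cluster 1 with fewer than 50 piRNA genes, 12 of 233 members (5.15%, 2.97 to 8.78) overlapped an IDR peak, against 14 of 481 (2.91%, 1.74 to 4.83) in the 17 bins with at least 50, and the intervals overlap. In replicates 1 to 4, strong regions were 8.08%, 7.81%, 7.05% and 8.10% in the bins with fewer piRNA genes, against 5.73%, 4.46%, 6.45% and 4.76% in those with more. These values did not overlap. The median distance from a summit to the nearest piRNA 5′ end was 635 bp for the 26 IDR-overlapping members of cluster 1, against 362 bp for the other 688. In cluster 2 it was 343 bp for the 13, against 110 bp for the other 866.

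Base composition moved with these differences. The IDR-overlapping members had a median GC content within 50 bp of the summit of 42.6% in both clusters, against 32.7% in the other members of cluster 1 and 29.2% in those of cluster 2. Chromosome IV regions were split into 3 classes of about equal size at 29.7% and 36.6% GC. Of the members of cluster 2, 54.8% fell in the lowest class, against 39.6% of those of cluster 1 and 32.1% of the rest of the chromosome. In the lowest class, 0 of 283 members in cluster 1 overlapped an IDR peak (which allows up to 1.06%), 0.207% in cluster 2 and 0.862% on the rest. In the middle class the shares were 3.11%, 0.431% and 3.54%. In the highest they were 9.22% (5.98 to 14.0) in cluster 1, 6.67% (3.76 to 11.5) in cluster 2 and 7.58% (6.12 to 9.36) on the rest, with intervals that overlap.

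**Figure D4:**
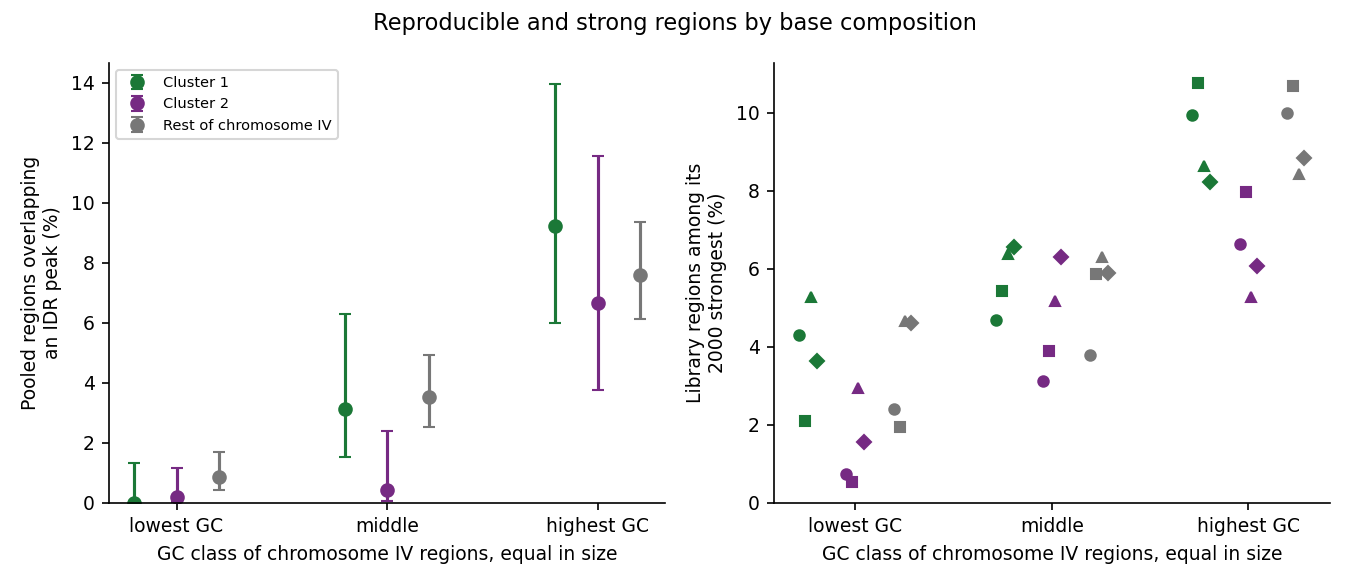
Share of pooled regions that overlap an IDR peak (left, %, with 95% Wilson intervals) and share of library regions among the 2000 strongest (right, %, 1 symbol per library, shaped by replicate as in the plot of strong regions) by class of GC content within 50 bp of the summit. The IDR share and the mean share of strong regions increase from left to right in each stretch, while in replicate 4 cluster 2 has 6.29% in the middle class and 6.07% in the highest. In the highest class, cluster 2 averages 6.49% on the right, cluster 1 9.38% and the rest 9.48%.

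In the single libraries the gap of cluster 2 was also present within the classes. In the highest one, strong regions were 6.64%, 7.96%, 5.28% and 6.07% in cluster 2, against 9.99%, 10.7%, 8.43% and 8.83% on the rest. The difference was -2.99 ± 0.307 percentage points (SD, n = 4), lower in 4 of 4 libraries (exact sign-flip permutation p = 0.13). In the lowest class it was -1.97 ± 0.733, lower in 4 of 4 (exact p = 0.13), and in the middle class -0.84 ± 0.993, lower in 3 of 4 (exact p = 0.25). For cluster 1 the differences from the rest were 0.42 ± 1.18, 0.30 ± 0.603 and -0.10 ± 0.355 from the lowest to the highest class, none lower or higher in all 4 libraries.

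The gap of cluster 2 was also measured within promoters. The promoter window reached 1000 bp upstream and 200 bp downstream of each 5′ end, piRNA genes left out. It held the summit of 45.5% of members in cluster 1, 27.5% in cluster 2 and 44.2% of regions on the rest of the chromosome, and it covers 36.5%, 24.7% and 35.7% of their bases. Within promoters, strong regions averaged 8.05% ± 0.574 in cluster 1, 3.97% ± 0.842 in cluster 2 and 8.38% ± 0.470 on the rest (SD, n = 4 each). The difference of cluster 2 from the rest was -4.41 ± 1.19 percentage points there and -1.58 ± 0.182 outside promoters, lower in 4 of 4 libraries in both (exact p = 0.13). Of the promoter regions, 5.23% in cluster 1, 1.65% in cluster 2 and 5.56% on the rest overlapped an IDR peak.

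Cluster 2 lies close to the end of its chromosome, so it was set beside the stretches at the same distance, 293829 to 3993829 bp, from all 12 ends of the nuclear chromosomes. It was second lowest of the 12 in both measures. The lowest was the right end of chromosome V, with 5 of 602 regions overlapping an IDR peak (0.831%, 0.355 to 1.93) and a mean of 2.68% ± 0.793 strong regions, against 13 of 879 and 3.41% ± 0.575 in cluster 2. The left end of chromosome IV had 3.25% and 4.87% ± 0.411, and the ends of chromosome X had the highest shares, 5.74% and 5.45% overlapping an IDR peak. A share as low was thus also measured at a chromosome end outside the piRNA clusters.

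**Figure D5:**
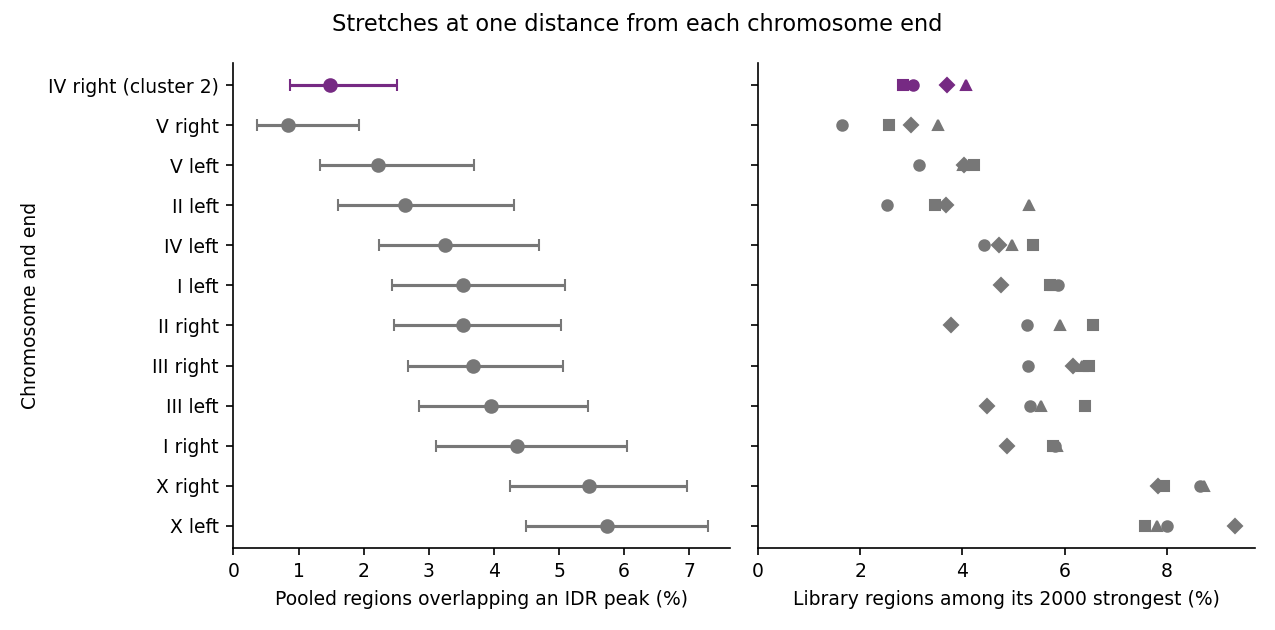
Share of pooled regions that overlap an IDR peak (left, %, with 95% Wilson intervals) and share of library regions among the 2000 strongest (right, %, 1 symbol per library, shaped by replicate as in the plot of strong regions) for cluster 2 and for the 11 stretches at the same distance from the other chromosome ends. Cluster 2 has 1.48% on the left, between the right end of chromosome V at 0.831% and the left end at 2.23%.

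The genes of the piRNA pathway lie mostly outside the clusters. Of 38 listed genes, 35 matched the annotation and 13 of these (37.1%) had a pooled region in the promoter window, against 36.7% of all 19985 protein-coding genes. An IDR peak was there in 0 of the 35, against 2.67% of all protein-coding genes, and a list of 35 is too short to show a difference from that share. Among the transcription factors of piRNA genes, prde-1 (10.4) and tofu-5 (13.1) had a pooled region, while snpc-4, tofu-4 and the forkhead gene unc-130 had none. Of 11 processing genes 4 had one. The strongest was at tofu-1 (35.5, ranks 5323, 956, 1684 and 3465), one of the genes whose loss reduces piRNA production, followed by ife-3, pid-3 and the trimming enzyme gene parn-1 (16.2, 15.0 and 12.3). Of 19 matched effector genes 7 had one, with wago-4, an Argonaute of inherited silencing, the highest at 30.1. The Piwi gene prg-1 had no region in its window in the pooled list or any library. Inside cluster 1, pgl-1, which encodes a P granule protein, had none in the pooled list and ranks of 20543 and 23343 in replicates 1 and 2.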

How the data were processed

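Peak lists of 4 ChIP-seq libraries were used as deposited by the authors. Per the file records, regions were called for each library and on the 4 alignments pooled, with a single control that was not used here, and the IDR list (1033 peaks) was derived from those calls. The aligner, caller and IDR threshold: not given in the sources used here. The signal of each region is the authors' own value, deposited with no stated scale, and served only to describe and rank regions within a list. Read depth is unknown. In the lists used, 0 measurement columns of other samples were left out.

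Positions follow ce11 (WBcel235) and count from 1, with genes from Ensembl release 115 and sequence from the RefSeq copy of that genome. Python 3.11.15 with numpy 2.4.6, pandas 2.3.3, scipy 1.17.1 and matplotlib 3.10.9 was used. Regions are not replicates, so ratios and differences were tested over libraries by exact sign-flip permutation. The ratios of density and of median signal were checked on simulated regions, more numerous than the real ones. The share of strong regions was not checked in this way. The labels call the libraries biological replicates of one strain, so p-values measure the spread between these samples. An overlap was 1 bp or more. The annotated gene of a region is the one with the nearest 5′ end, piRNA genes left out. A library's rank for a member is that of its strongest overlapping region.

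The members and gene lists were chosen with earlier results of these data known. Named members are the 10 of highest pooled signal per cluster, those nearest each limit and the 3 strongest at piRNA genes per cluster, plus pathway genes. The GC classes, promoter splits by library, bins by piRNA number, test of strong regions at piRNA genes, E-box counts and chromosome ends were added after the data were seen, and their p-values are not adjusted.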

Additional observations from a re-analysis of the deposited data

How the results depend on the processing

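Under the alternatives run (cluster limits trimmed or redrawn from piRNA genes per bin, merged regions, fewer regions, other limits of strength, ce10 lists, repeated coordinates removed, stricter overlap, each library left out, and comparison within centre or arms), 133 of 143 values kept their direction and size class, 7 changed sign and 3 moved. The repeated coordinates, found in replicate 1, included 0 on chromosome IV, so removing them could change no value here. Those values equal the main ones and are counted among the 133. The signs that changed belong to log2 ratios from -0.14 to 0.09 in the main setting. Among them are the density ratios of cluster 1 and cluster 2 to the rest, each of 1 direction in all 4 libraries. Cluster 1 to the rest in median signal, -0.01, became 0.026 with the 10000 strongest regions, 0.00081 in ce10 and 0.0012 without replicate 2, the highest of the values with a library left out, whose lowest was -0.029 without replicate 3. Its ratio in strong regions, -0.05, became 0.17 with the 500 strongest (higher in 4 of 4 libraries, exact p = 0.13) and 0.035 with the 5000 strongest. Its density ratio, 0.09, became -0.012 against the centre, and that of cluster 2, -0.14, became 0.0063 against the arms. With the stronger 50% of the IDR list the share of overlapping regions moved to 1.63% in both clusters together, 2.66% in cluster 1, 0.796% in cluster 2 and 1.73% on the rest, so cluster 1 was then above the rest and not below it, with intervals that overlap. With the clusters redrawn as bins of at least 50 piRNA genes, the share was 2.91% (1.74 to 4.83) in cluster 1 and 2.14% (1.38 to 3.32) in cluster 2. On the rest it was then 4.01% (3.38 to 4.76). The gap between the clusters was thus smaller, with intervals that overlap. Redrawn, cluster 2 takes in the bin just past its upper limit, where 6 of 33 regions overlapped an IDR peak. Within its original limits, the bins with at least 50 piRNA genes had 13 of 854 (1.52%, 0.892 to 2.59). The ratio of strong regions of cluster 2 to the rest was not run with the clusters redrawn. Under the alternatives run for it, this ratio stayed below 0, from -0.98 in ce10 to -0.49 with the 5000 strongest. The cause of the sign changes and of the moved shares was not tested. No paired analysis was possible because all libraries form 1 group, so no replicate number is shared between groups. The tests compare stretches within each library. With 4 libraries no p can fall below 0.13, and read depth is unknown, so no counting limit for a missing region can be given.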
